A study of Homo sapiens with 4 samples.

Results

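The genes described here are 10 members of the NRF2 and quinone and carbonyl reductase system: NFE2L2, KEAP1, NQO1, NQO2, AKR1C1, AKR1C2, AKR1C3, AKR1B1, AKR1B10 and CBR1. They were chosen by symbol from the 60487 gene entries of each library, and all 10 reached 1 FPKM (fragments scaled to transcript length and to the size of the library) in at least 1 library. RNA came from HCC1937, an established human breast cancer line, in 4 groups of 1 library each. The wtBRCA1 line, labelled wild type for BRCA1, was given OTX-015 or DMSO, and the vector line, labelled BRCA1 -/-, was given OTX-015 or DMSO. All groups thus share the HCC1937 background and carry a construct, either wild-type BRCA1 or an empty vector. OTX-015 (birabresib) binds the bromodomains of the BET proteins, which read acetylated histones, and DMSO is its solvent. Dose, time, and whether each line is a clone or a pool are unstated in the sources used here.

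NRF2, the protein made from NFE2L2, is a transcription factor that switches on detoxifying and antioxidant genes through antioxidant response elements in their control regions. KEAP1 holds NRF2 in the cytoplasm and hands it to a cullin ubiquitin ligase for destruction, and oxidants or electrophiles that modify KEAP1 let NRF2 accumulate, so that its activity is set mainly at the level of protein. NQO1 and several aldo-keto reductases are long known as NRF2 targets in human epithelial cells.

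Poly(A) RNA was sequenced with a directional kit. The members together held 0.238% and 0.107% of the summed FPKM in wtBRCA1 cells under OTX-015 and DMSO, and 0.142% and 0.105% in vector cells under OTX-015 and DMSO. The FPKM sums were 1477103 and 1496107 in the OTX-015 libraries and 962378 and 909314 in the DMSO libraries of the wtBRCA1 and vector lines, and the sequencing depth is unknown. The 10 highest genes held 33.8% and 39.2% of these sums under OTX-015 and 15.3% and 17.4% under DMSO in the same lines, and the part of this shift in the OTX-015 differences was examined only by rescaling the libraries. BRCA1 itself was listed at 2712, 171, 40.8 and 37.2 FPKM in wtBRCA1 OTX-015, wtBRCA1 DMSO, vector OTX-015 and vector DMSO cells, so it was higher in the line labelled wtBRCA1 under both treatments, and it also differed between the treatments of that line. The part of this BRCA1 difference in the results below was not tested. All 8 epithelial marker genes were at 1 FPKM or more in every library, but the lines stood apart on several keratins. KRT5 was listed at 573 and 980 FPKM in wtBRCA1 cells under OTX-015 and DMSO, against 23.2 and 29.4 FPKM in vector cells, and KRT19 at 1.39 and 3.97 FPKM against 234 and 124 FPKM in the same order. The part of these epithelial differences in the line differences of the members was not tested. Of 9 markers of other cell types, 4, 4, 3 and 4 reached 1 FPKM in wtBRCA1 OTX-015, wtBRCA1 DMSO, vector OTX-015 and vector DMSO cells, with summed levels of 56.2, 37.9, 31.2 and 25.2 FPKM. Most of each sum was the leukocyte marker CD68, at 44.5, 21.9, 24.8 and 15.5 FPKM, and the fibroblast marker COL1A1 was at 8.39, 9.78, 4.01 and 1.86 FPKM. The endothelial marker PECAM1 was at 2.11, 3.15, 0.67 and 4.88 FPKM and the melanocyte marker MLANA at 1.09, 2.08, 1.75 and 0.727 FPKM. The endothelial marker CDH5 was at 0, 0.712, 0 and 2.15 FPKM in the same order. COL3A1, DCN and PDGFRB were at 0 in every library and PTPRC was at most 0.225 FPKM, and the part of these markers in the results was not tested. In bulk RNA, fewer cells expressing a gene and less RNA per cell cannot be told apart.

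The coding sequences of the 3 AKR1C genes are shown first, because their likeness limits how reads can be divided among them. The first 120 coding bases of each, from GENCODE 29 transcripts on hg38, read 5′ to 3′, with capitals at the 19 positions where the 3 genes are not all the same.
AKR1C1 (chr10:4963253-4983283, plus strand): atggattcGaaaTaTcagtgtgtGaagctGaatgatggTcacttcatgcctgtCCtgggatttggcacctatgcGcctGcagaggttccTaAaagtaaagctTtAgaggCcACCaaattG
AKR1C2 (chr10:4987400-5018031, minus strand): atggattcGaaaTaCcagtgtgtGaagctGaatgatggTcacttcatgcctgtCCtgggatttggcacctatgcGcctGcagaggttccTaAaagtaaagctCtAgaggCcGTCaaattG
AKR1C3 (chr10:5035354-5107686, plus strand): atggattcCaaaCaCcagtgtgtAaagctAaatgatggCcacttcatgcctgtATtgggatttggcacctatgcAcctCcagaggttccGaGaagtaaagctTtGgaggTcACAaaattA
In this stretch AKR1C2 differed from AKR1C1 at 4 bases and AKR1C3 from AKR1C1 at 16. Over the whole coding sequence of 972 bases, AKR1C1 and AKR1C2 were 98.0% identical, with 19 differing bases and a longest shared run of 189 bases. Of all windows of 50 bases in the AKR1C1 coding sequence, 51.8% also occurred exactly in AKR1C2, against 14.6% in AKR1C3. By contrast, AKR1B1 and AKR1B10 were 75.3% identical over 951 coding bases and shared no window of 50 bases, and NQO1 and NQO2 shared none either.

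The promoters of 3 members are shown for the core of the antioxidant response element, spelled TGACNNNGC and searched on both strands. RefSeq promoter windows (GRCh38.p14, 250 bases before to 50 after a start site) matched 9 of the 10 members in 13 windows. The core was found in 2 of these 13 windows, against 13.3% of all 35116 windows, and the AP-1 motif TGANTCA in 0 of 13, against 7.71% of all windows. The window of NQO1, the highest member in 3 of the 4 libraries, held none of these letters and is all in lower case, and capitals in the KEAP1 and CBR1 windows mark the matches.
NQO1 (chr16:69726511-69726810, minus strand): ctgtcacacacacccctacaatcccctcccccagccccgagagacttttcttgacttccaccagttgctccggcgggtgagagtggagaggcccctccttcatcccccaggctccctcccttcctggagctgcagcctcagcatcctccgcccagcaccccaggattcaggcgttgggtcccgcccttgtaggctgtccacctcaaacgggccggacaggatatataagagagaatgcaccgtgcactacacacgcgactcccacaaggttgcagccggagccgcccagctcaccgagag
KEAP1 (chr19:10502722-10503021, minus strand): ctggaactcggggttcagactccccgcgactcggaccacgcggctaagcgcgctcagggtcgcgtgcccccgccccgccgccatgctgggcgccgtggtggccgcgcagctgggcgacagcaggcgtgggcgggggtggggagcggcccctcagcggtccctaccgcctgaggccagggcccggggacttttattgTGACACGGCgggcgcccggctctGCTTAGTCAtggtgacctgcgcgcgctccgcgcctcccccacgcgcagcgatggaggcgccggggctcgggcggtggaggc
CBR1 (chr21:36069774-36070073, plus strand): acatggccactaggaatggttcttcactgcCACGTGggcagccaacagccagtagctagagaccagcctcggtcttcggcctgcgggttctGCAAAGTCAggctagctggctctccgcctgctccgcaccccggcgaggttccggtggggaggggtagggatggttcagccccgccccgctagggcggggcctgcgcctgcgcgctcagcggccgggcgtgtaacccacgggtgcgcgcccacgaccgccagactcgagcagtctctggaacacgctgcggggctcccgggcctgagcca
In the KEAP1 window the matches TGACACGGC and, for the other strand, GCTTAGTCA began 54 and 31 bases before the start site. In the CBR1 window the match for the other strand, GCAAAGTCA, began 159 bases before the start site, and the remaining capitals are an E-box, CACGTG, a motif found in 7.26% of all windows. KEAP1 has a second window, with no match. A match is a string of letters and not a measured binding site, and its absence from 300 bases says nothing of elements farther away.

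The first comparison was OTX-015 against DMSO over both lines. NQO1, which reduces quinones to hydroquinones, was the 1 member that rose, and the other 9 did not pass the test. The fit was limma's on log2(FPKM + 1) with line and treatment as terms, adjusted over 18295 genes (Benjamini-Hochberg, threshold 0.05). The share of all genes that rose was 3.66%, and the share that fell was 2.67%, with 0 of the 10 members falling. At an unadjusted p under 0.05 by limma, in either direction, 3 of the 10 members stood beside 22.8% of all genes, a share near that background. With 1 library per group, these p-values rest on how far the responses of both lines part, and not on the spread between cultures. The variance behind them is pooled over genes of like level, so a gene's own likeness between lines sets it only in part. In single pairs of libraries, which have no test, a difference of at least 1 log2 unit (2-fold) is reported. By that measure 2 members were higher under OTX-015 in wtBRCA1 cells (13.0% of all genes) and 1 was lower (13.4%). In vector cells 1 was higher (13.0%) and 1 was lower (12.7%). The lower one was AKR1B10, which passed the filter on low values only through vector cells under DMSO, so it had to be lower elsewhere. The median log2 difference of the 10 members was 0.18 in wtBRCA1 cells and 0.31 in vector cells, beside a median of 0.0 over all genes in each line.

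The second comparison was wtBRCA1 against vector over both treatments. NQO2, NQO1, AKR1C1 and AKR1C3 were higher in wtBRCA1 cells by the limma test and AKR1B1, the aldose reductase that turns glucose into sorbitol, was lower. Thus 4 of 10 members were called higher, beside 4.88% of all genes, and 1 of 10 lower, beside 3.41%. Under OTX-015, 5 members were at least 2-fold higher in wtBRCA1 cells (15% of all genes) and 1 was lower (12.6%). Under DMSO, 4 were higher (14.8%) and 2 were lower (11.7%), of which AKR1B10 again had to be by the filter. The median log2 difference of the members was 0.66 under OTX-015 and 0.80 under DMSO, beside 0.0 and 0.04 over all genes. The members were chosen with earlier results of these data known, so these shares describe them and single nothing out.

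With any 1 library left out, 0 members passed either limma test, but that fit also leaves the other factor out, and with all 4 libraries leaving it out alone gave 0 as well, so the loss cannot be put down to a library. Without a trend of variance on level 0 members passed for OTX-015 and 1, AKR1B1, for wtBRCA1. For wtBRCA1 2 passed without a filter on low values, 2 with the libraries rescaled to equal sums and 3 with quantile normalization.

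**Figure D1:**
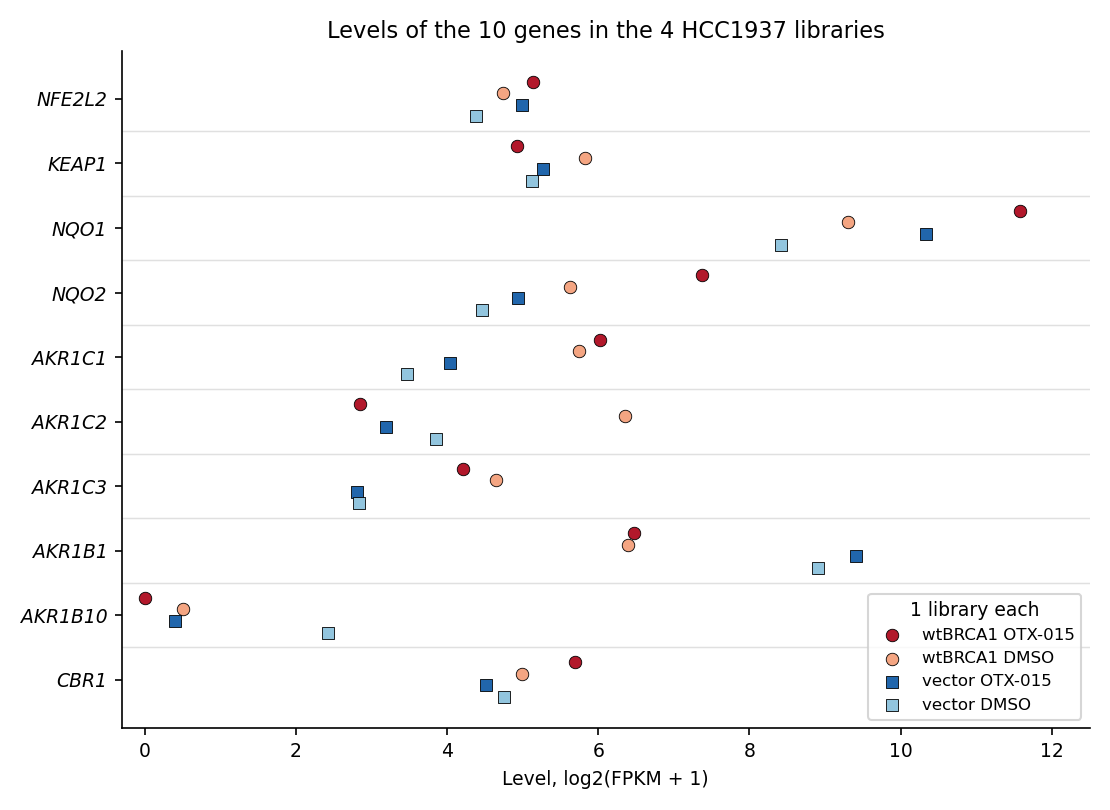
Levels of the 10 genes as log2(FPKM + 1), 1 point per library (n = 1 each), with wtBRCA1 libraries as circles, vector libraries as squares and OTX-015 in the darker shade. NQO1 lies between 341 and 3067 FPKM, AKR1B1 is higher in both vector libraries, and the AKR1C2 circle for wtBRCA1 cells under DMSO stands apart at 80.9 FPKM.

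Among the regulators, NFE2L2 (ENSG00000116044, chr2:177227595-177392697, minus strand) was listed at 34.3 FPKM in wtBRCA1 cells under OTX-015 and 25.7 under DMSO, and at 30.9 in vector cells under OTX-015 and 19.8 under DMSO. The OTX-015 library was the higher of the pair in each line, by 0.41 log2 units in wtBRCA1 and 0.61 in vector cells, and the fitted effect was 0.51 ± 0.32 (SE), short of the threshold (limma adjusted p = 0.4). That direction turned with the libraries rescaled to equal sums, where the differences were −0.19 in wtBRCA1 and −0.08 in vector cells. It was kept with median-of-ratios factors, at 0.35 and 0.53, and with quantile normalization, at 0.38 and 0.58, in the same order. The wtBRCA1 effect on NFE2L2 was 0.25 ± 0.32 (limma adjusted p = 0.682). Entries on the other strand overlap its exons, the antisense RNA AC079305.1 by 190 bases and AGPS by 54 bases, and the quantification may or may not have used strand, which the sources used here leave unstated.

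KEAP1 (chr19:10486120-10503741, minus strand) was listed at 29.4 and 55.7 FPKM in wtBRCA1 cells under OTX-015 and DMSO, against 37.5 and 33.8 FPKM in vector cells under OTX-015 and DMSO. The wtBRCA1 DMSO library was the high one and the other 3 lay close together. The OTX-015 difference was −0.90 log2 units in wtBRCA1 cells and 0.14 in vector cells, the second turning to −0.55 with libraries rescaled to equal sums. Neither fitted effect passed the test, at −0.38 ± 0.35 for OTX-015 and 0.18 ± 0.35 for wtBRCA1 (SE, limma adjusted p = 0.581 and 0.793). The ratio of NFE2L2 to KEAP1 was 1.17 in wtBRCA1 OTX-015, 0.461 in wtBRCA1 DMSO, 0.823 in vector OTX-015 and 0.585 in vector DMSO cells, above 1 in the first library and below 1 in the other 3.

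NQO1 (ENSG00000181019, chr16:69706996-69726951, minus strand) was listed at 3067 FPKM in wtBRCA1 cells under OTX-015 and 633 under DMSO, and at 1292 FPKM in vector cells under OTX-015 and 341 under DMSO. Both OTX-015 libraries lay above both DMSO libraries, and within each treatment the wtBRCA1 library lay above the vector library. How many of all genes are ordered in such ways was not counted, here or for the members below. Under OTX-015 the level was 4.85 times that under DMSO in wtBRCA1 cells and 3.79 times in vector cells. Over both lines NQO1 rose by 2.10 ± 0.19 log2 units with OTX-015 (SE, limma adjusted p = 0.000812), and by 1.43 log2 units with the libraries rescaled to equal sums (limma adjusted p = 0.0279). In wtBRCA1 cells NQO1 was 2.37 times as high as in vector cells under OTX-015 and 1.86 times under DMSO, with a fitted effect of 1.07 ± 0.19 (SE, limma adjusted p = 0.00955). That effect of the line was −0.07 without the wtBRCA1 OTX-015 library, 2.21 without the wtBRCA1 DMSO library, 2.03 without the vector OTX-015 library and 0.11 without the vector DMSO library, in fits of the line alone to 3 libraries that differ in treatment. It did not pass with no filter on low values (limma adjusted p = 0.0748) or with libraries rescaled to equal sums (limma adjusted p = 0.0549). Nor did it pass with no trend of variance on level (limma adjusted p = 0.195) or with treatment left out (limma adjusted p = 0.705). The OTX-015 call of NQO1 was lost with no trend (limma adjusted p = 0.159) and with the line left out (limma adjusted p = 0.487).

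An antisense entry, AC092115.2, lies wholly within the exons of NQO1 on the other strand, with all 575 of its exon bases shared. It was listed at 2681 and 410.8 FPKM in wtBRCA1 cells under OTX-015 and DMSO, and at 731.5 and 185.4 FPKM in vector cells under OTX-015 and DMSO. Its values were ordered as those of NQO1 were, and it was higher under OTX-015 by 2.70 log2 units in wtBRCA1 and 1.97 in vector cells. Reads of the 2 entries cannot be told apart unless strand was used. With both entries added into 1 value, an alternative chosen after seeing the data, the OTX-015 effect was 2.20 (limma adjusted p = 0.000466) and the wtBRCA1 effect 1.25 (limma adjusted p = 0.00402).

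NQO2 (chr6:2987987-3028869, plus strand), a quinone reductase that takes electrons from dihydronicotinamide riboside, was listed at 165 FPKM in wtBRCA1 cells under OTX-015 and 48.4 under DMSO, against 29.8 and 21.1 FPKM in vector cells under OTX-015 and DMSO. Both wtBRCA1 libraries lay above both vector libraries. NQO2 was higher in wtBRCA1 cells by 1.80 ± 0.37 log2 units (SE, limma adjusted p = 0.0169), with 5.54 times the vector level under OTX-015 and 2.3 times under DMSO. The call did not pass without the filter on low values, with libraries rescaled to equal sums or with quantile normalization (limma adjusted p = 0.0665, 0.0693 and 0.0648). Nor did it pass with no trend of variance on level or with treatment left out (limma adjusted p = 0.124 and 0.374). Without the wtBRCA1 OTX-015 library the line effect was 0.92. The OTX-015 difference was 1.75 log2 units in wtBRCA1 and 0.48 in vector cells (−0.21 in vector cells with libraries rescaled to equal sums), and the fitted 1.12 ± 0.37 did not pass (SE, limma adjusted p = 0.106). A pseudogene on the other strand, HTATSF1P2, lies wholly within NQO2 exons and was listed at 22.6 and 4.3 FPKM in wtBRCA1 cells under OTX-015 and DMSO, and at 7.3 and 1.34 FPKM in vector cells under OTX-015 and DMSO, so it was higher with NQO2 in each pair. Its part in the NQO2 values was not tested. NQO1 exceeded NQO2 in every library, with ratios of 18.5, 13.1, 43.3 and 16.2 in wtBRCA1 OTX-015, wtBRCA1 DMSO, vector OTX-015 and vector DMSO cells.

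**Figure D2:**
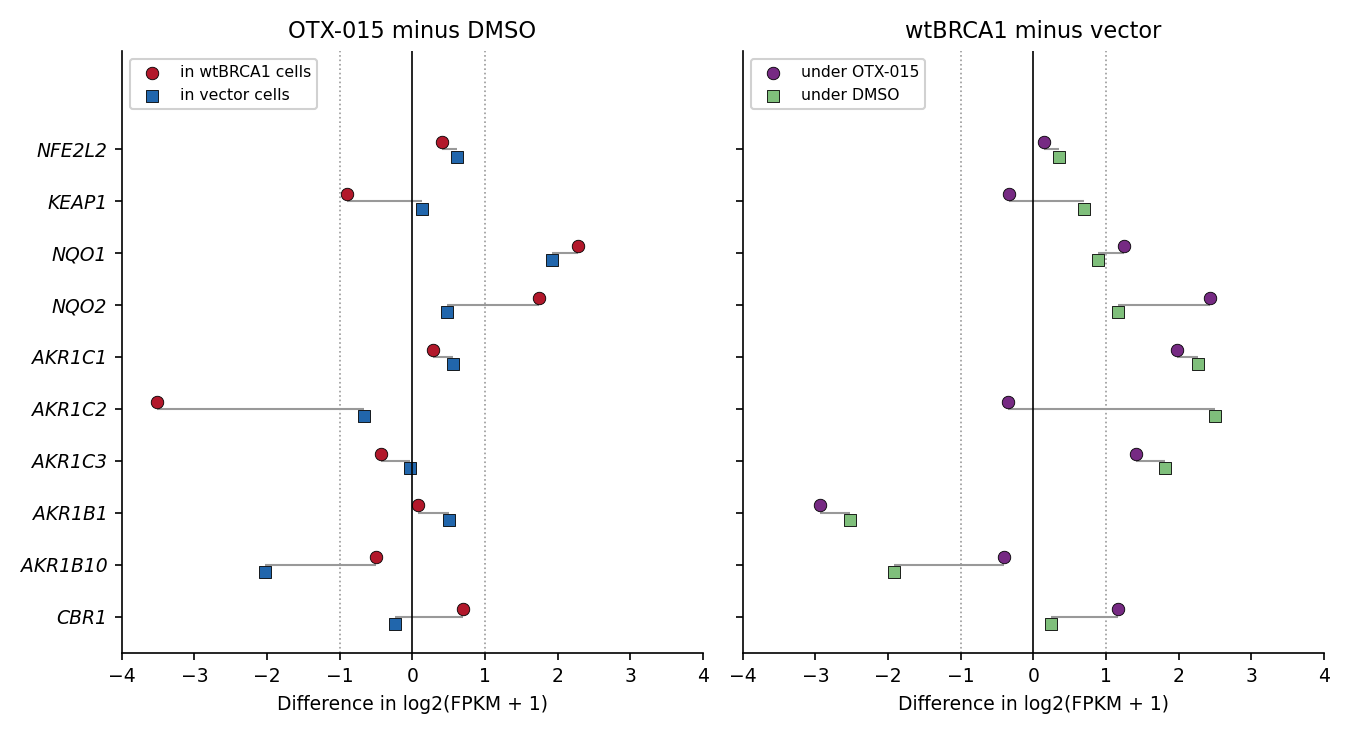
Differences in log2(FPKM + 1) for each gene, with OTX-015 minus DMSO on the left for wtBRCA1 cells (circles) and vector cells (squares), and wtBRCA1 minus vector on the right under OTX-015 (circles) and DMSO (squares). Each point is the difference of 1 library from 1 other, dotted lines mark 1 log2 unit, and NQO1 lies past 1 in both lines on the left while AKR1C1, AKR1C3 and NQO2 lie past 1 under both treatments on the right.

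The AKR1C enzymes are hydroxysteroid dehydrogenases. AKR1C1 (ENSG00000187134), which inactivates progesterone, was listed at 64.0 and 52.6 FPKM in wtBRCA1 cells under OTX-015 and DMSO, against 15.4 and 10.1 FPKM in vector cells under OTX-015 and DMSO. Both wtBRCA1 libraries, which differ in treatment, lay above both vector libraries, an order not counted over all genes. AKR1C1 was higher in wtBRCA1 cells by 2.12 ± 0.33 log2 units (SE, limma adjusted p = 0.00499). It had 4.15 times the vector level under OTX-015 and 5.18 times under DMSO. The call of the line was lost with no trend of variance on level (limma adjusted p = 0.0705). It was also lost with treatment left out of the model (limma adjusted p = 0.162). The OTX-015 effect was 0.42 ± 0.33 (SE, limma adjusted p = 0.496) and turned to −0.22 with libraries rescaled to equal sums.

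AKR1C2, which inactivates dihydrotestosterone, differed in pattern from its near-identical neighbour. It was listed at 6.18 FPKM in wtBRCA1 cells under OTX-015 and 80.9 under DMSO, and at 8.16 FPKM in vector cells under OTX-015 and 13.5 under DMSO. Only the wtBRCA1 DMSO library was high. In wtBRCA1 cells the OTX-015 level was 0.0764 times the DMSO level, and in vector cells 0.605 times. The fitted OTX-015 effect of −2.09 ± 0.57 log2 units did not pass the test (SE, limma adjusted p = 0.0613), nor did the wtBRCA1 effect of 1.07 ± 0.57 (SE, limma adjusted p = 0.298). The wtBRCA1 minus vector difference was −0.35 under OTX-015 and 2.50 under DMSO.

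AKR1C3, which makes testosterone and prostaglandin F, is held in 2 entries, and their sum was 17.6 and 24.0 FPKM in wtBRCA1 cells under OTX-015 and DMSO, against 5.99 and 6.13 FPKM in vector cells under OTX-015 and DMSO. Both wtBRCA1 libraries lay above both vector libraries. The gene was higher in wtBRCA1 cells by 1.61 ± 0.35 log2 units (SE, limma adjusted p = 0.0229), and by 2.15 from the entry that GENCODE 29 holds alone (limma adjusted p = 0.00747), a choice made after seeing the data. The call from the sum did not pass without the filter, with libraries rescaled to equal sums or with quantile normalization (limma adjusted p = 0.0823, 0.0598 and 0.0596). Nor did it pass with no trend of variance on level or with treatment left out (limma adjusted p = 0.107 and 0.259). With OTX-015 the effect was −0.23 ± 0.35 (SE, limma adjusted p = 0.734), and −0.74 from that entry alone (limma adjusted p = 0.26). The GENCODE 29 entry was listed at 12.9 and 21.8 FPKM in wtBRCA1 cells under OTX-015 and DMSO. In vector cells it was at 2.08 and 4.24 FPKM in the same order. The other entry was at 4.67 and 2.24 FPKM in wtBRCA1 cells and 3.92 and 1.90 FPKM in vector cells. In each line the GENCODE 29 entry was thus lower, and the other entry higher, under OTX-015.

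Because AKR1C1 and AKR1C2 share long runs, their sum was also examined. It was 70.2 FPKM in wtBRCA1 cells under OTX-015 and 133 under DMSO, and 23.6 FPKM in vector cells under each treatment. The sum was thus listed at the same rounded value in both vector libraries, although its parts differed. The summed pair was higher in wtBRCA1 cells by 1.99 ± 0.34 log2 units (SE, limma adjusted p = 0.00775). For OTX-015 the summed effect was −0.46 ± 0.34 (SE, limma adjusted p = 0.468). AKR1C2 made up 7.05% of the 3 genes' FPKM in wtBRCA1 cells under OTX-015 and 51.4% under DMSO, and 27.6% in vector cells under OTX-015 and 45.3% under DMSO. AKR1C1 made up 72.9% and 33.4% in wtBRCA1 cells under OTX-015 and DMSO, and 52.1% and 34.1% in vector cells under OTX-015 and DMSO. In both lines the AKR1C1 share was thus higher and the AKR1C2 share lower under OTX-015. The AKR1C3 share was between 15.3% and 20.6% in the 4 libraries, as the sum of 2 entries that went opposite ways under OTX-015. How far the quantification divided shared reads between the genes was not tested.

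**Figure D3:**
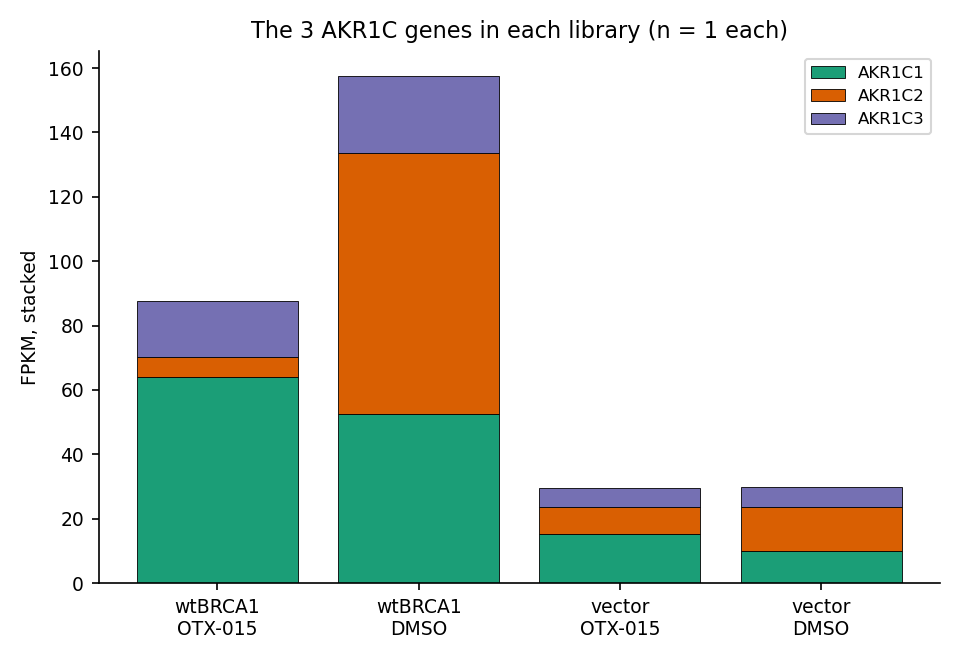
FPKM of AKR1C1, AKR1C2 and AKR1C3 stacked for each library (n = 1 each), with wtBRCA1 to the left of vector and OTX-015 to the left of DMSO. The stacks reach 87.7, 157, 29.6 and 29.8 FPKM, and the AKR1C2 part is 6.18, 80.9, 8.16 and 13.5 FPKM from left to right.

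AKR1B1 (ENSG00000085662, chr7:134442350-134459284, minus strand) was listed at 87.5 and 82.8 FPKM in wtBRCA1 cells under OTX-015 and DMSO, against 679 and 481 FPKM in vector cells under OTX-015 and DMSO. It was the member with the largest fitted effect of the line, −2.73 ± 0.25 log2 units (SE, limma adjusted p = 0.000337), and wtBRCA1 cells held 0.129 times the vector level under OTX-015 and 0.172 times under DMSO. Across the alternatives with all 4 libraries this call was lost once, with treatment left out of the model (limma adjusted p = 0.0707). The OTX-015 effect was 0.29 ± 0.25 (SE, limma adjusted p = 0.546) and turned to −0.38 with libraries rescaled to equal sums. Its neighbour AKR1B10 (chr7:134527592-134541408, plus strand), which reduces retinal and other aldehydes, was listed at 0 and 0.417 FPKM in wtBRCA1 cells under OTX-015 and DMSO, and at 0.318 and 4.37 FPKM in vector cells under OTX-015 and DMSO. The vector DMSO library was the 1 above 1 FPKM. Neither effect on AKR1B10 passed the test, at −1.27 ± 0.61 for OTX-015 and −1.16 ± 0.61 for wtBRCA1 (SE, limma adjusted p = 0.259 and 0.296).

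CBR1 (chr21:36069941-36073166, plus strand), a carbonyl reductase that acts on prostaglandins and anthracyclines, was listed at 50.5 FPKM in wtBRCA1 cells under OTX-015 and 30.7 under DMSO, and at 21.8 FPKM in vector cells under OTX-015 and 25.9 under DMSO. The wtBRCA1 libraries were the higher under each treatment, by 1.17 log2 units under OTX-015 and 0.24 under DMSO, and the OTX-015 difference was 0.70 in wtBRCA1 and −0.24 in vector cells. Neither effect passed the test, at 0.23 ± 0.35 for OTX-015 and 0.71 ± 0.35 for wtBRCA1 (SE, limma adjusted p = 0.735 and 0.266). An entry on the other strand, AP000688.1, shares 464 exon bases with CBR1 and was listed above it in every library, at 244.8, 127.4, 220.8 and 148.8 FPKM in wtBRCA1 OTX-015, wtBRCA1 DMSO, vector OTX-015 and vector DMSO cells.

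**Figure D4:**
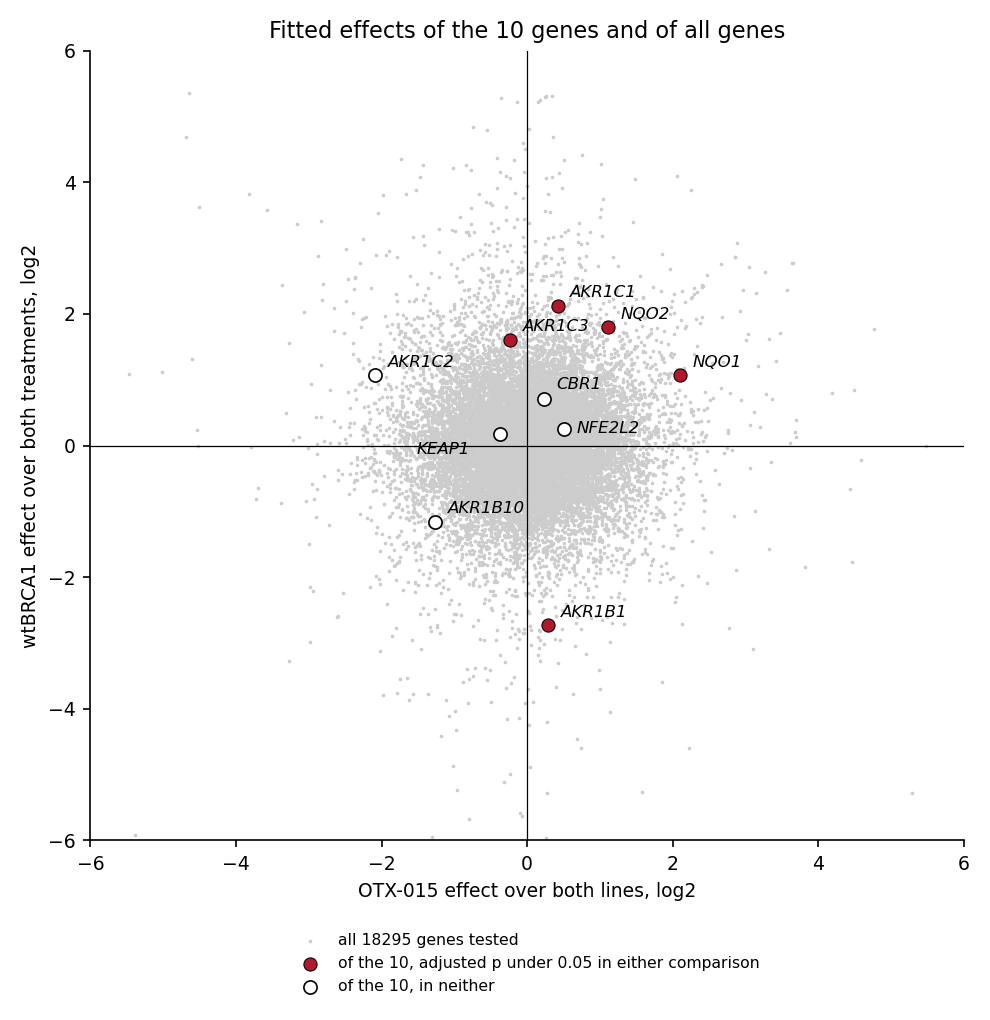
Fitted OTX-015 effect over both lines (horizontal) and fitted wtBRCA1 effect over both treatments (vertical), in log2 units, for the 18295 genes tested (grey) and the 10 members, filled where the limma adjusted p is under 0.05 in either comparison. The 11 genes past 6 log2 units are outside the axes. NQO1 lies to the upper right at 2.10 and 1.07, and AKR1B1 at the bottom at 0.29 and −2.73.

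The order of levels by FPKM, which is per length, differed between libraries. NQO1 was the highest member in both wtBRCA1 libraries and in vector cells under OTX-015, followed by NQO2 in wtBRCA1 cells under OTX-015 and by AKR1B1 in the other 2. In vector cells under DMSO AKR1B1 at 481 FPKM stood above NQO1 at 341. AKR1B10 was the lowest in all 4 libraries. With 1 library each, neighbours in these orders have no spread to be told apart by.

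The genes most like NQO1 in pattern were sought by the distance between log2(FPKM + 1) values centred over the 4 libraries, among 7172 genes with a mean of at least 10 FPKM. Entries named only by a clone, among them the antisense entry of NQO1, were left out of this search. The 5 nearest were WDR47, CHRNA5 (a nicotinic acetylcholine receptor subunit), ABCC5 (an efflux pump), EPHX1 (microsomal epoxide hydrolase) and MAP1LC3B (an autophagosome protein), at distances of 0.12, 0.139, 0.167, 0.214 and 0.288, where the median gene lay at 2.42. CHRNA5 was listed at 67.3 and 13.9 FPKM in wtBRCA1 cells under OTX-015 and DMSO and at 29.4 and 6.15 FPKM in vector cells under OTX-015 and DMSO. Among the members, NQO2 was nearest to NQO1, at a distance of 1.3 and rank 408, ahead of NFE2L2 at 1.81, and AKR1C2 was farthest at 4.48.

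The wider NRF2 system was read from 3 lists, chosen with earlier results of these data known and described by counts beside the shares of all genes given above. Calls in these lists are from the fit as reported, and how they depend on scaling, filter or trend was not examined. Of 19 genes that control NRF2, 17 were tested (BACH2 and NFE2 stayed below 1 FPKM), and for OTX-015 2 rose and 0 fell by the limma test. SQSTM1, the autophagy receptor p62 that binds KEAP1, was listed at 2925 and 634 FPKM in wtBRCA1 cells under OTX-015 and DMSO and at 1648 and 580 FPKM in vector cells under OTX-015 and DMSO, and rose by 1.85 ± 0.21 log2 units (SE, limma adjusted p = 0.00211). DPP3, a peptidase that also binds KEAP1, rose by 1.68 ± 0.25 (SE, limma adjusted p = 0.00754). GSK3B, a kinase that marks NRF2 for destruction, was higher by 1.08 ± 0.31 without passing (SE, limma adjusted p = 0.0718), and the coactivators CREBBP and EP300 and the ligase subunit FBXW11 were lower by 1.04, 0.36 and 0.41 in fitted values that did not pass either (limma adjusted p = 0.156, 0.671 and 0.52). For wtBRCA1 none of the 17 passed the limma test.

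All 35 NRF2 targets outside the members were tested, and for OTX-015 8 rose and 2 fell by the limma test. The glutathione synthesis enzyme GCLC was listed at 167 and 35.7 FPKM in wtBRCA1 cells under OTX-015 and DMSO and at 141 and 25.4 FPKM in vector cells under OTX-015 and DMSO, and rose by 2.31 ± 0.29 log2 units (SE, limma adjusted p = 0.00389). HMOX1 (heme oxygenase), EPHX1, FTL (ferritin light chain) and TXNRD1 (thioredoxin reductase) rose by 2.07, 1.97, 1.86 and 1.80, and PRDX1 (peroxiredoxin) and PGD (phosphogluconate dehydrogenase) rose by 1.54 and 1.19. BLVRA, which makes bilirubin from biliverdin, fell by 2.02, and the ubiquitin ligase gene TRIM16 fell by 1.56. The list's median difference was 0.54 log2 units in wtBRCA1 and 0.08 in vector cells, against 0.0 over all genes in each. For wtBRCA1, 2 targets were higher by the limma test, PRDX1 by 0.85 and ALDH3A1 by 1.97. Lower were GSR (glutathione reductase), TXNRD1, FTL, TALDO1 and TKT, with effects between −2.33 and −1.01, and CES1 at −3.28, 6 in all. CES1 was listed at 0 in both wtBRCA1 libraries. It passed the filter on low values only through vector cells, so it had to be lower in wtBRCA1 cells. NQO1 and PRDX1 were higher in wtBRCA1 cells while TXNRD1 and FTL were lower, and all of these 4 rose with OTX-015.

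Of 22 other carbonyl and quinone reductases, 19 were tested (AKR1B15, AKR1C4 and AKR1D1 stayed below 1 FPKM), and for OTX-015 3 rose and 0 fell by the limma test. DCXR, which reduces xylulose, was listed at 1148 and 211 FPKM in wtBRCA1 cells under OTX-015 and DMSO and at 752 and 213 FPKM in vector cells under OTX-015 and DMSO, and rose by 2.13 ± 0.24 log2 units (SE, limma adjusted p = 0.00204). The aldehyde reductase AKR7A2 and CYB5R1 rose by 1.36 and 1.26. For wtBRCA1, CBR3, the paralog of CBR1, was higher by 1.42 ± 0.36 (SE, limma adjusted p = 0.0423), and DHRS2 and VAT1 were lower, at −2.96 and −1.95. The quinone reductase CRYZ and the aldo-keto reductases AKR1E2 and AKR7A3 were lower under OTX-015 by 1.34, 0.60 and 0.30 log2 units in fitted values. These values did not pass (limma adjusted p = 0.0789, 0.377 and 0.787). AKR7L had a fitted OTX-015 effect of 1.55, which did not pass either (limma adjusted p = 0.253). It reached 7.53 FPKM in the OTX-015 library of the vector line and stayed under 1 FPKM elsewhere. AKR7L thus passed the filter on low values only through that library, so it had to be highest there. Its OTX-015 difference in wtBRCA1 cells was 0.0 log2 units.

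**Figure D5:**
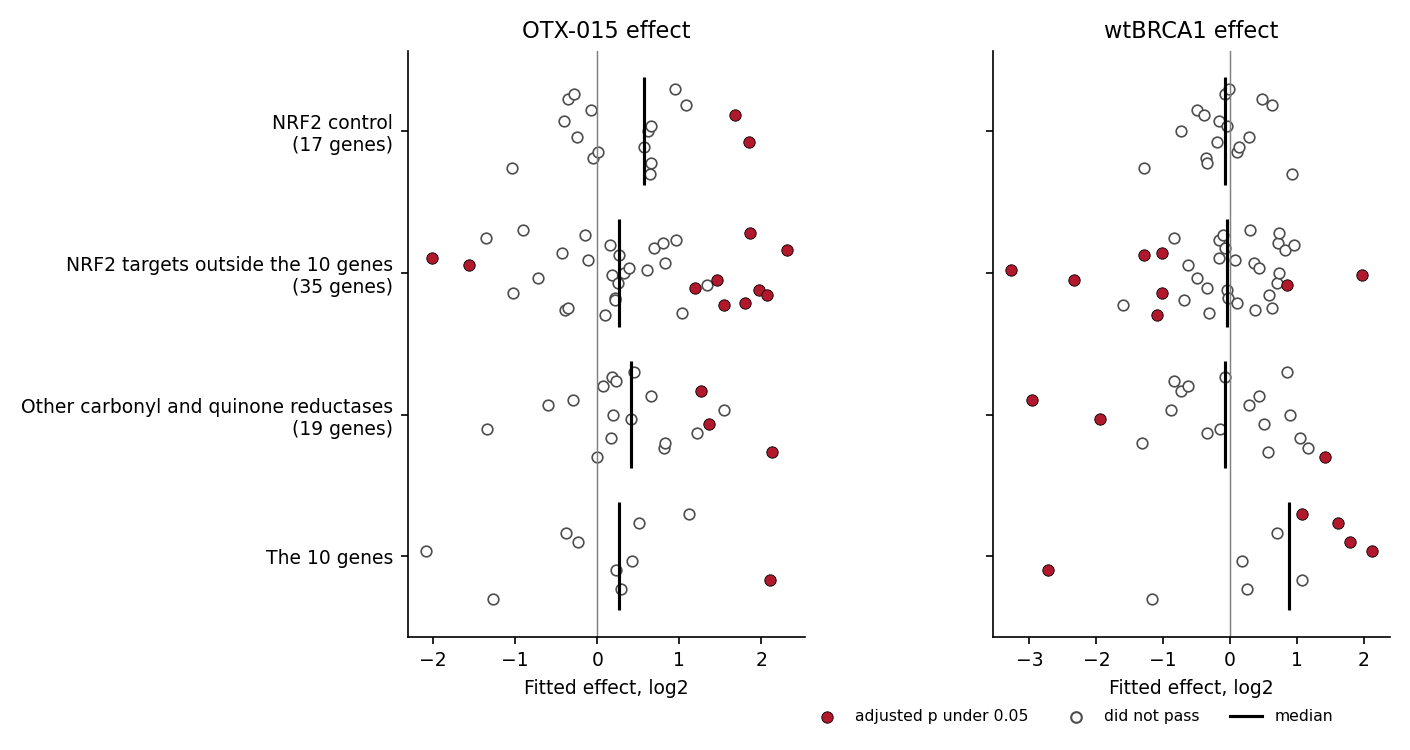
Fitted effects in log2 units of OTX-015 (left) and wtBRCA1 (right) for the 3 lists and the 10 members, 1 point per gene, filled where the limma adjusted p is under 0.05, with a bar at the median and vertical jitter that carries no value. The medians for OTX-015 are 0.57, 0.27, 0.41 and 0.26 from top to bottom, and for wtBRCA1 −0.08, −0.05, −0.08 and 0.89.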

How the data were processed

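Poly(A) RNA of HCC1937 cells (wtBRCA1 or vector line, OTX-015 or DMSO) was sequenced from 1 directional library per group. The authors deposited FPKM values per gene. The submitters' processing notes name TopHat2, Cufflinks and the build hg38. Strand use, read length, annotation release and scaling between libraries are not given in the sources used here. The files hold no counts and low values show no common step, so depth is unknown and no counting interval can be given. Of 60487 gene identifiers per file, 94.2% were in GENCODE 29, 7510 genes of short structural RNA were dropped, and rows that share a symbol were added up. The 18295 genes reaching 1 FPKM in any library were analysed as log2(FPKM + 1), a scale that understates differences of low genes.

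limma 3.58.1 (R 4.3.3) was fitted with line and treatment as terms and a mean-variance trend, leaving 1 residual degree of freedom per gene. What is left over in the fit is how far the responses of both lines part, and limma pooled its variance over genes. An exact permutation of 2 libraries against 2 cannot pass 0.05. Verbs of change are kept for genes past this test. Alternatives covered pseudocounts of 0.1 and 5, the filter, scaling (median-of-ratios factors, equal sums, quantiles), summed AKR1C genes, the trend, the other factor and each library left out. The genes named are the 10 members, neighbours and genes of like symbol at 10 FPKM or more in a library, list members past either test or among the 3 highest and 3 lowest for OTX-015, and the 5 nearest to NQO1. Some list members are counted but not reported by name here. Members and lists were chosen with earlier results of these data known. Python 3.11.15, pandas 2.3.3, numpy 2.4.6 and matplotlib 3.10.9 were used.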

Additional observations from a re-analysis of the deposited data

Results flagged for a closer look

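Differences of opposite sign in both pairs of libraries under the same contrast were seen for 2 of the 10 genes between OTX-015 and DMSO, beside 29.6% of all genes, and for 2 of the 10 between wtBRCA1 and vector, beside 29.7% of all genes. None of these genes passed either limma test, in which differences of opposite sign draw the fitted effect of that contrast toward 0 by construction. The difference was not tested in any of these cases, since each pair is 1 library against 1. KEAP1 differed by −0.90 log2 units between OTX-015 and DMSO in wtBRCA1 cells and by 0.14 in vector cells, a gap of −1.04, and with libraries rescaled to equal sums the vector value was −0.55, which leaves both below 0. The same 4 values give a wtBRCA1 minus vector difference for KEAP1 of −0.34 under OTX-015 and 0.70 under DMSO, again a gap of −1.04. CBR1 differed by 0.70 between OTX-015 and DMSO in wtBRCA1 cells and by −0.24 in vector cells, a gap of 0.94. AKR1C2 had a wtBRCA1 minus vector difference of −0.35 under OTX-015 and 2.50 under DMSO, a gap of −2.85, the widest of these.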

How the results depend on the processing

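For OTX-015, 1 member passed the limma test as reported and 0 with no trend or with the line left out of the model. For wtBRCA1, 5 passed as reported, 2 with no filter on low values, 2 with libraries rescaled to equal sums, 3 with quantile normalization, 1 with no trend and 0 with treatment left out. With each library left out the count was 0 for both comparisons. Members at least 2-fold apart between OTX-015 and DMSO numbered 5 in wtBRCA1 cells with libraries rescaled to equal sums (3 as reported), and 1 in vector cells with a pseudocount of 5 or an FPKM filter of 5 (2 as reported). Rescaling to equal sums shifted the median OTX-015 difference of all genes by −0.43 in wtBRCA1 and −0.48 in vector cells, and turned the OTX-015 effect to −0.13 for NFE2L2, −0.22 for AKR1C1, −0.38 for AKR1B1 and −0.41 for CBR1. The line differences of the members kept their signs under the 3 scalings.

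With each library left out in turn, the fits have no term for the other factor and are unbalanced for it by construction, so both choices change at once. The OTX-015 effect then ranged from −0.10 to 2.33 for NQO2, −0.71 to 1.55 for AKR1C1, −1.14 to 0.68 for AKR1C3, −1.18 to 1.76 for AKR1B1 and −0.36 to 0.82 for CBR1, and from 1.47 to 2.72 for NQO1. The wtBRCA1 effect ranged from −0.05 to 0.56 for NFE2L2, −0.27 to 0.63 for KEAP1, −0.07 to 2.21 for NQO1 and −0.68 to 2.83 for AKR1C2, and from −2.98 to −2.48 for AKR1B1. Over all members and alternatives, 204 values kept direction and side of the threshold, 42 kept direction but no longer passed or lost the call, and 16 turned. No paired analysis was possible because each group has 1 library and replicate numbers pair nothing, beyond the fit as reported, which already compares treatments within each line. Unknown depth limits what can be said of genes near 0, such as AKR1B10.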

Other observations

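Genes with symbols that start like those of the members, and neighbours of the members, have values of their own where they reached 10 FPKM. AKR1A1, the general aldehyde reductase, was listed at 199 and 181 FPKM in wtBRCA1 cells under OTX-015 and DMSO, and at 113 and 97.3 FPKM in vector cells under OTX-015 and DMSO. AKR1E2 was listed at 8.91, 11.4, 4.74 and 9.54 FPKM in wtBRCA1 OTX-015, wtBRCA1 DMSO, vector OTX-015 and vector DMSO cells. Of 18 other symbols that start like those of the members, 13 stayed below 1 FPKM in every library. These 18 hold pseudogenes and also separate enzyme genes of the family such as AKR1A1 and AKR1E2. The peroxisomal enzyme gene AGPS, beside NFE2L2, was listed at 11.6 and 12.0 FPKM in wtBRCA1 cells under OTX-015 and DMSO, against 25.9 and 46.7 FPKM in vector cells under OTX-015 and DMSO. The antisense entry AC079305.1 at NFE2L2 was listed at 33.3, 35.9, 42.4 and 35.5 FPKM in wtBRCA1 OTX-015, wtBRCA1 DMSO, vector OTX-015 and vector DMSO cells. SETD4, a protein-coding gene on the other strand across CBR1, shares 0 exon bases with it. In the same order SETD4 was listed at 6.309, 3.985, 13.93 and 2.306 FPKM.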
